A study of Mus musculus with 6 samples.

Results

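The genes described here build and run motile cilia, the beating hair-like organelles that multiciliated cells carry on the airway lining of the nose. They were chosen by name: 37 symbols for factors of multiciliated cells, dynein arms, radial spokes, the central apparatus and related proteins. Of these 36 were among the 24346 gene symbols of the files, and Dnah12 was not analysed here. All 36 averaged at least 1 FPKM (read fragments scaled by transcript length and library size), the level required for a test. Messenger RNA was sequenced from the whole nasomaxillary complex, the nose and upper jaw, of E17.5 mouse embryos. The 3 mutant libraries came from embryos labelled Wnt1-Cre:Pth1r f/f, and the 3 control libraries from embryos labelled Pth1r f/f, for which the labels name no Cre. Both groups carry the floxed Pth1r gene, which encodes the receptor of parathyroid hormone and its related protein, and neither was treated. Wnt1-Cre acts in the neural crest, the source of most facial bone and cartilage, whereas the nasal epithelium arises mainly from surface ectoderm. With no Cre named for controls, an effect of the Cre transgene itself cannot be told apart from that of Pth1r deletion.

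A motile cilium holds a ring of doublet microtubules around a central pair. Outer and inner dynein arms on the doublets slide them past each other. Radial spokes and the central apparatus carry signals that set the beat, and the nexin links hold neighbouring doublets together. In multiciliated cells Foxj1 and the RFX factors switch on the genes for these parts, and the dynein arms are put together in the cytoplasm by assembly factors before they enter the cilium. In mouse and human, loss of many of these genes causes primary ciliary dyskinesia, in which mucus is not cleared from the nose and lungs.

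RFX factors bind a DNA element called the X-box, which was not used to choose the genes. RefSeq promoters (GRCm38.p6, from 250 bases before to 50 bases after the start) were given for 30 of the 36 genes. The 14-base X-box consensus was searched as GTNRCC, 2 bases and RGYAAC (N any base, R A or G, Y C or T). No other spacing of these arms was searched. The consensus stood, on either strand, in the promoters of 2 of these 30 genes (6.67%). Its share was 0.796% of 27025 genes in the whole table and 1.13% of the tested genes that matched the table. The shorter string GTTGCC, one arm of the X-box and able to lie inside it, stood on either strand in 15 of 30 (50%), against 14.1% in the whole table and 15.2% of the tested genes that matched it. In the 150 bases before the start alone, GTTGCC was found for 36.7% of the 30 genes and 7.61% of all genes of the table. In that window it was found for 32.3% of other motile cilia genes, 23.8% of primary cilium genes and 8.66% of tested genes. Over the whole window the shares were no higher than in like sets: GTTGCC stood in 50.8% of 65 other motile cilia genes and 52.4% of 21 primary cilium genes, and the X-box in 10.8% and 9.52% of them. The promoters of Spag16 (chr1:69826720-69827019, plus strand) and Hydin (chr8:110266727-110267026, plus strand), 2 genes of the central apparatus, are shown because they hold the whole consensus, in capitals. The promoter of Dynlrb2 (chr8:116504765-116505064, plus strand), the most abundant of the genes, is shown for its GTTGCC, in capitals. After a single t it is followed by agcaac, which matches the other arm at a spacing that was not searched. The stretch in capitals lay 90 to 103 bases before the start in Spag16 and 46 to 51 bases before it in Dynlrb2. In Hydin it lay 8 to 21 bases before the start, on the opposite strand.
Spag16: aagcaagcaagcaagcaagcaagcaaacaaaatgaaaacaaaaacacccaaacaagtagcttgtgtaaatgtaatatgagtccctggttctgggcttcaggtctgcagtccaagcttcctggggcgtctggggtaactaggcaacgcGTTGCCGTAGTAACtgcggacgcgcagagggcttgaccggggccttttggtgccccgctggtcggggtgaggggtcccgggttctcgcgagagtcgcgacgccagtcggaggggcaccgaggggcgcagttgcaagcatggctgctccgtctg
Hydin: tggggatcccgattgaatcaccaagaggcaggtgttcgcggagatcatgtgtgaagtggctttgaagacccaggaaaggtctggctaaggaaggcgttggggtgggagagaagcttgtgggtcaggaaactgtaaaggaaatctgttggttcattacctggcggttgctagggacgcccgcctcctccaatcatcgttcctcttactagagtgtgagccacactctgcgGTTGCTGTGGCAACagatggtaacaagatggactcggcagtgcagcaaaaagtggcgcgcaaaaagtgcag
Dynlrb2: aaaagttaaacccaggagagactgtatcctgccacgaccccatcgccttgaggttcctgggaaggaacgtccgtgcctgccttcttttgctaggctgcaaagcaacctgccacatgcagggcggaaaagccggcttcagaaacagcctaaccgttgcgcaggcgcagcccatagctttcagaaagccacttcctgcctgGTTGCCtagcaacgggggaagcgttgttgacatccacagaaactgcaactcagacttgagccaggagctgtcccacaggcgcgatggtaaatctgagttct
GTTGCC was also present for Rfx2, Rfx3, Zmynd10, Drc1, Spag6, Spef2, Tekt1, Tekt2, Tekt4, Mns1, Pifo and Ccdc113. A match is a string of letters and does not show that a factor binds there.

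Motile cilia genes were well expressed in this tissue and differed little between genotypes. None of the 36 genes was called at a limma adjusted p under 0.05, against 0.264% of the 14766 tested genes, and 2 had an unadjusted p under 0.05 (5.56%, against 11.3% of tested genes). The 95% confidence interval of the change lay within 1.5-fold in either direction for all 36 genes, and for 90.0% of tested genes. Taken over the 36 genes, the widest bounds were 0.824-fold and 1.37-fold. Fold changes and intervals are on the log2(FPKM + 1) scale. The median log2 change was 0.063, against -0.0020 over all tested genes, and single genes ran from -0.13 for Lrrc6 to 0.18 for Rsph4a. Of the 36 changes, 32 were above 0 (88.9%, against 49.2% of tested genes), but only 21 were without mutant replicate 3. No label ties a library to its own embryo, and the p-values reflect library-to-library spread that may be technical.

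**Figure D1:**
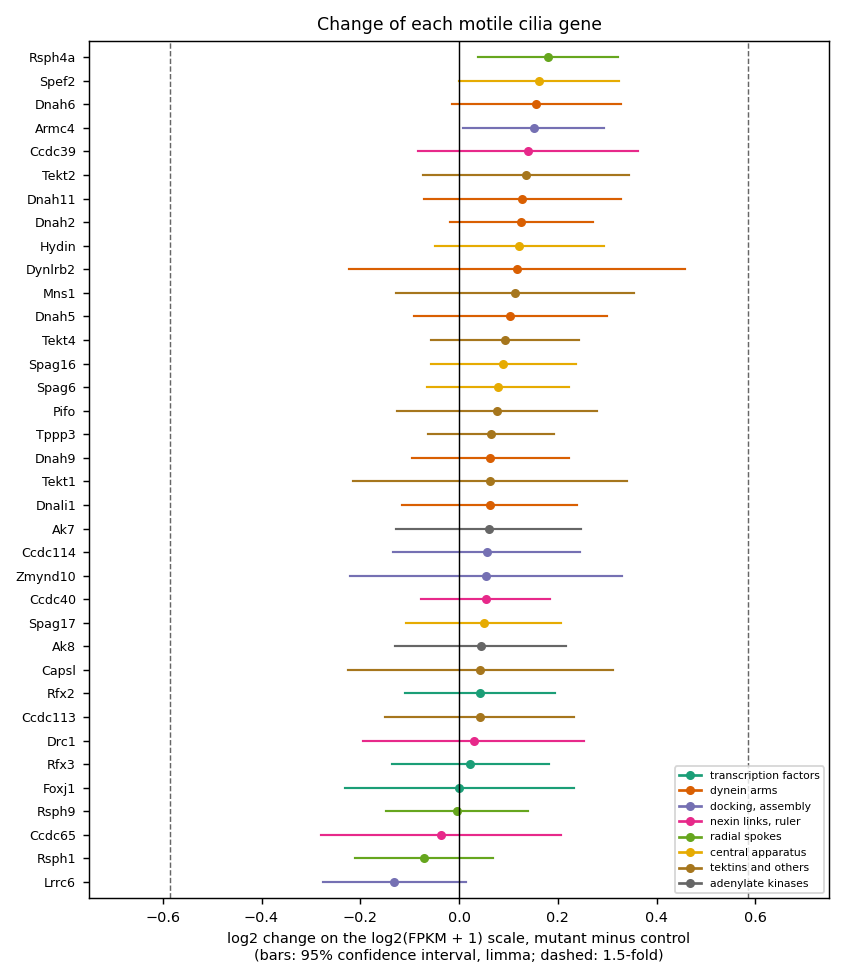
Log2 change (mutant minus control, horizontal axis) of each of the 36 motile cilia genes, coloured by role. Points are limma estimates, bars are 95% confidence intervals, and dashed lines mark 1.5-fold; every interval lies inside them, and 32 of 36 points lie above 0.

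The transcription factors of ciliated cells differed by less than the spread between libraries. Foxj1, the master regulator of motile cilia, had 116, 91.4 and 117 FPKM in mutant replicates 1 to 3, against 113, 104 and 105 FPKM in control replicates 1 to 3. The lowest and the highest library were both mutant, and the means were 108 ± 14.6 FPKM in mutant and 108 ± 4.96 FPKM in control (SD, n = 3 each). Its log2 change was 0.00072 ± 0.099 (SE), with an interval from 0.852-fold to 1.17-fold and a limma adjusted p of 0.999. Rfx2, an RFX factor of ciliated and germ cells, had 15.7, 14.3 and 15.6 FPKM in mutant libraries and 14.3, 15.7 and 14.1 FPKM in control libraries. Rfx3, an RFX factor of motile and primary cilia, had 8.83, 8.33 and 8.36 FPKM in mutant libraries and 8.32, 8.97 and 7.80 FPKM in control libraries. For both the groups overlapped throughout, with log2 changes of 0.042 ± 0.065 for Rfx2 and 0.023 ± 0.068 for Rfx3.

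**Figure D2:**
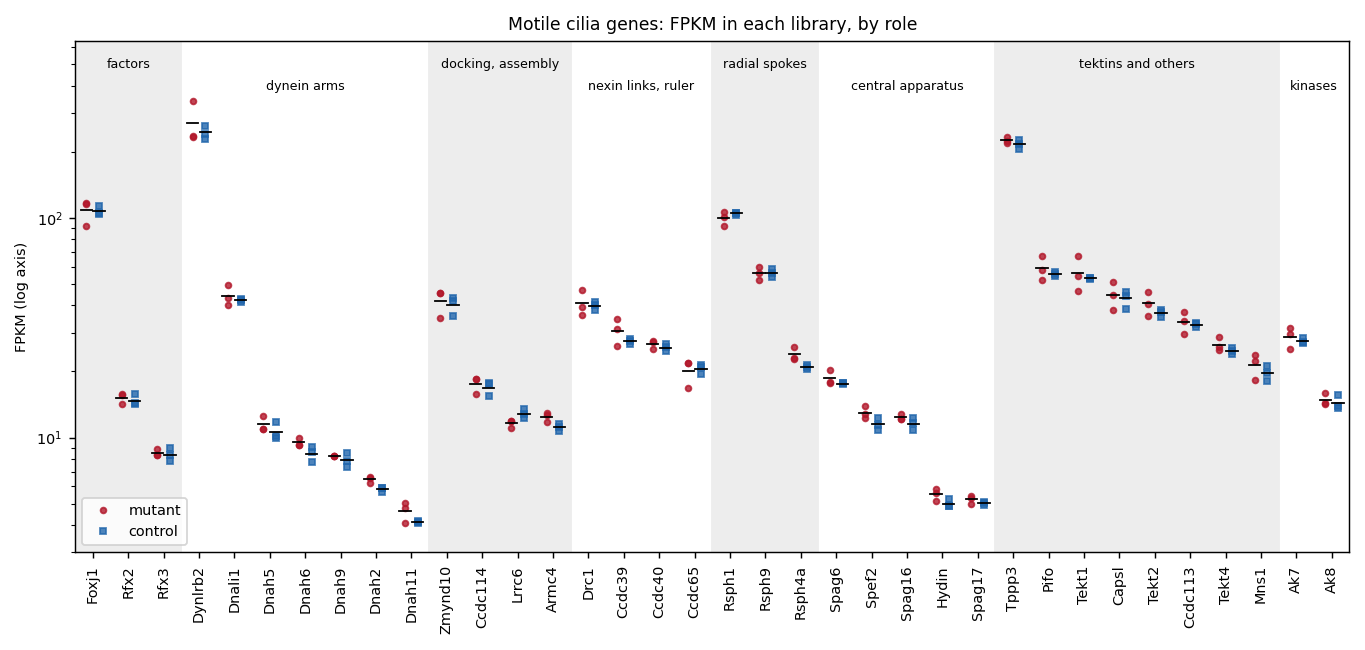
FPKM on a log axis for each of the 36 genes, ordered by role and level, with mutant libraries (red circles) left of control libraries (blue squares) and black bars at the group means. Levels run from 4.39 FPKM for Dnah11 to 257 FPKM for Dynlrb2 (means over 6 libraries), and the groups lie close together at every level.

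Among dynein arm genes, the heavy chains, which are the motors, were low per length and the light chains high. The outer arm heavy chains Dnah5, Dnah9 and Dnah11 averaged 11.0, 8.07 and 4.39 FPKM over the 6 libraries. Dnah6, an inner arm heavy chain, had 9.25, 9.27 and 9.998 FPKM in mutant libraries and 8.56, 9.04 and 7.71 FPKM in control libraries. The groups did not overlap, with a log2 change of 0.16 ± 0.073 (limma adjusted p = 0.477). Dnah2, another inner arm heavy chain, had 6.20, 6.58 and 6.55 FPKM in mutant libraries and 5.90, 5.66 and 5.89 FPKM in control libraries. Here too every mutant value lay above every control value, by 0.13 ± 0.062 on the log2 scale (adjusted p = 0.496). Dynlrb2, a roadblock light chain of dynein, had 235, 233 and 339 FPKM in mutant libraries and 263, 229 and 241 FPKM in control libraries. Mutant replicate 3 alone stood above the rest, and the log2 change of 0.12 ± 0.14 had the widest interval of the 36 genes, 0.857-fold to 1.37-fold. Dnali1, an inner arm light chain, averaged 43.2 FPKM. All 7 dynein arm genes had changes above 0, from 0.062 to 0.16, and none was called.

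The docking and assembly factors of the dynein arms differed in sign. Armc4, of the outer arm docking complex, had 11.8, 12.6 and 13.0 FPKM in mutant libraries and 11.1, 11.5 and 10.7 FPKM in control libraries. Its log2 change was 0.15 ± 0.061, with an unadjusted p of 0.0402 and a limma adjusted p of 0.419. Lrrc6, an assembly factor, had 11.9, 11.0 and 12.0 FPKM in mutant libraries and 12.7, 12.2 and 13.5 FPKM in control libraries. It was the one gene of the 36 whose mutant values all lay below the control values, with a log2 change of -0.13 ± 0.062 (adjusted p = 0.482). Zmynd10, which works with Lrrc6 in dynein assembly, had 45.6, 35.0 and 45.3 FPKM in mutant libraries and 43.2, 35.6 and 41.9 FPKM in control libraries. Its groups overlapped, as did those of Ccdc114, a docking complex gene at 17.2 FPKM.

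The ruler and nexin link genes were at 20.4 to 40.3 FPKM, and their groups overlapped in all 4 cases. Ccdc39, which with Ccdc40 forms the ruler that sets the repeat of the axoneme, had 31.1, 26.1 and 34.5 FPKM in mutant libraries and 26.8, 28.0 and 27.6 FPKM in control libraries. The mutant values spanned the control values on both sides. Ccdc40 had 27.4, 25.2 and 27.5 FPKM in mutant libraries and 25.8, 26.6 and 24.7 FPKM in control libraries. Drc1, of the nexin-dynein regulatory complex, had 36.1, 39.1 and 47.1 FPKM in mutant libraries and 39.9, 41.4 and 37.9 FPKM in control libraries. Log2 changes were 0.14 ± 0.095 for Ccdc39, 0.054 ± 0.055 for Ccdc40, 0.030 ± 0.095 for Drc1 and -0.037 ± 0.10 for Ccdc65, the other gene of that complex.

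Rsph4a, a radial spoke head protein gene, had the largest change of the 36, though not under every alternative. It had 23.1, 22.8 and 25.8 FPKM in mutant libraries and 21.3, 20.9 and 20.6 FPKM in control libraries, so the groups did not overlap. The log2 change was 0.18 ± 0.060, with an interval from 1.03-fold to 1.25-fold, an unadjusted p of 0.0192 and a limma adjusted p of 0.337. Rsph1, of the same spoke head, had 101, 92.2 and 107 FPKM in mutant libraries and 106, 103 and 106 FPKM in control libraries, a log2 change of -0.071 ± 0.059. Rsph9, the third spoke head gene, averaged 56.0 ± 3.70 FPKM in mutant and 56.1 ± 2.30 FPKM in control (SD, n = 3 each). The genes of this one structure therefore had changes of either sign.

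All 5 genes of the central apparatus had changes above 0, from 0.050 to 0.16, and none was called. Spef2 had 12.85, 12.24 and 13.85 FPKM in mutant libraries and 10.84, 12.23 and 11.43 FPKM in control libraries. Its groups touched but did not overlap, with a log2 change of 0.16 ± 0.069 (limma adjusted p = 0.443). Hydin, whose product forms a projection of the central pair, had 5.58, 5.16 and 5.85 FPKM in mutant libraries and 4.88, 5.24 and 4.88 FPKM in control libraries, and the groups overlapped. Spag6 had 17.8, 17.9 and 20.2 FPKM in mutant libraries and 17.6, 17.4 and 17.7 FPKM in control libraries. These groups did not overlap, but 2 of the mutant values lay next to the control values. Spag6 has a close copy, Spag6l, listed at 0.0327 FPKM on average, and how the authors' counting split reads between them is not given. These 2 symbols have been exchanged between annotations, so which copy the Spag6 values belong to is uncertain, as is whether the Spag6 promoter above is of that copy.

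Tektins are filament proteins inside the doublet microtubules. Tekt2 had 40.5, 35.9 and 46.1 FPKM in mutant libraries and 37.4, 35.3 and 38.0 FPKM in control libraries. Tekt4 had 25.9, 24.9 and 28.7 FPKM in mutant libraries and 25.5, 24.8 and 23.9 FPKM in control libraries. Tppp3, a tubulin-binding protein gene, was the second most abundant of the 36, with 225, 219 and 234 FPKM in mutant libraries and 226, 205 and 217 FPKM in control libraries. In all 3 genes the groups overlapped, and the log2 changes were 0.14 ± 0.089 for Tekt2, 0.093 ± 0.064 for Tekt4 and 0.064 ± 0.054 for Tppp3. Tekt1, Pifo, Capsl, Ccdc113 and Mns1, the rest of this group, ranged from 20.5 to 57.2 FPKM. Mutant replicate 3 was the highest library for all 8 genes of the group. Mns1, which encodes a protein inside the doublets, shares 53.0% of its annotated exonic bases with Tex9 on the opposite strand. The strand setting of the counting is not given, so whether reads from these shared bases were assigned to the right gene is unknown. Opposite-strand overlap was 20.8% for Tekt2, 16.9% for Ccdc39, 15.7% for Spag17 and 10.1% for Zmynd10. Of the axonemal adenylate kinases, which buffer nucleotides for the dyneins, Ak7 had 29.5, 25.4 and 31.5 FPKM in mutant libraries and 28.3, 27.1 and 27.1 FPKM in control libraries. Ak8 had 14.3, 14.3 and 16.02 FPKM in mutant libraries and 13.7, 13.9 and 15.7 FPKM in control libraries, also overlapping.

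In all, the groups did not overlap for 7 of the 36 genes (19.4%), against 17% of tested genes. Dnah2, Dnah6, Armc4, Rsph4a, Spag6 and Spef2 were higher in mutant (6 of 36, 16.7%, against 7.85% of tested genes), and Lrrc6 was lower. Mutant libraries are 2 male and 1 female by Xist and Y-linked genes, whereas all 3 controls are female. Because all males are mutant, a fit with sex as a covariate compares mutant replicate 1, the female, alone with the 3 controls. In that fit 30 of 36 changes were above 0, with a median log2 change of 0.077.

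Single libraries of the mutant group lay farther apart than the group means. The summed level of the 36 genes was 1445, 1332 and 1644 FPKM in mutant replicates 1 to 3, against 1443, 1372 and 1399 FPKM in control replicates 1 to 3. The highest and the lowest sum were both mutant, and the means were 1473 ± 158 FPKM in mutant and 1405 ± 35.6 FPKM in control (SD, n = 3 each), a ratio of 1.05. Leaving out each library in turn moved that ratio between 0.988 and 1.10. Mutant replicate 3 was the highest library for 26 of 36 genes (72.2%, against 18.5% of tested genes) and the lowest for 0 (19.5% of tested genes). It also had the lowest estimated depth, 0.671 of control replicate 1, and the part of depth in this was not tested. Mutant replicate 2 was the lowest for 14 of 36 (38.9%, against 21.0% of tested genes). The SD of log2(FPKM + 1) was larger in mutant than in control for 27 of 36 genes (75%, against 56.6% of tested genes). In bulk tissue, a difference in the number of ciliated cells and a difference in RNA per ciliated cell cannot be told apart.

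**Figure D3:**
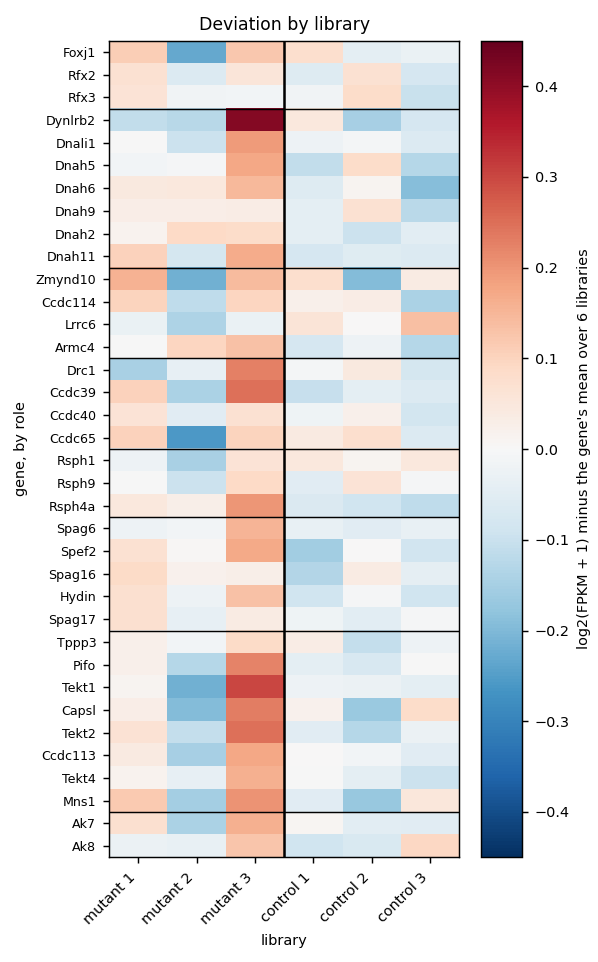
Deviation of each gene (rows, by role) from its mean over 6 libraries, in log2(FPKM + 1), for mutant libraries (left of the black line) and control libraries (right). The column of mutant replicate 3 is mostly red and that of mutant replicate 2 mostly pale or blue, while the controls are pale.

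Of the epithelial marker lists, that of simple epithelium followed the same libraries, and others did not. The 9 simple epithelium genes, among them Epcam and Krt8, summed to 748, 643 and 798 FPKM in mutant replicates 1 to 3, against 715, 759 and 725 FPKM in control replicates 1 to 3. Mutant replicate 2 was the lowest for 6 of the 9 and mutant replicate 3 the highest for 6. Per unit of this epithelial sum, the 36 cilia genes stood at 1.93, 2.07 and 2.06 in mutant libraries and at 2.02, 1.81 and 1.93 in control libraries. On this ratio mutant replicates 2 and 3 lay together, and both groups overlapped. In contrast, mutant replicate 2 was the lowest library for 1 of 11 secretory and gland genes, 0 of 5 basal cell genes and 0 of 10 olfactory neuron genes. Mutant replicate 3 was the highest for 2, 2 and 1 of them, although its sum of listed secretory and gland genes, 2094 FPKM, was the highest of the libraries. Skeletal muscle genes were highest in mutant replicate 2 for all 11 tested, with sums over the 12 listed of 520, 987 and 392 FPKM in mutant libraries and 434, 264 and 372 FPKM in control libraries. Cartilage genes were called lower in mutant for all 8 listed (Col2a1, Acan, Col9a1, Col9a3, Col11a1, Matn1, Epyc and Ucma), against 0.203% of tested genes. Their median log2 change was -1.83. Between 2 and 8 of the 8 stayed called when single libraries were left out, with every change below 0. With sex as a covariate, which compares mutant replicate 1 alone with the controls, every change was also below 0. The part of epithelium, muscle and cartilage content in the library differences of the cilia genes was not tested.

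Other motile cilia genes, listed by role, gave similar values except for those of the multiciliation programme. The list held 87 genes; 82 were found, 8 through another symbol, and 80 were tested. None was called (0.264% of tested genes were), and 5 had an unadjusted limma p under 0.05 (11.3% of tested genes). Of their changes 61 were above 0 (49.2% of tested genes), with a median of 0.053. How many stay above 0 without mutant replicate 3 was not counted. Intervals lay within 1.5-fold for 78 of the 80, and for 90.0% of tested genes. Mutant replicate 3 was the highest library for 50 of the 80 (62.5%, against 18.5% of tested genes). The multiciliation programme starts centriole amplification ahead of the axoneme genes. The 10 genes of its list, which also holds the tubulin gene Tubb4b, had a median log2 change of -0.031, with 4 changes above 0 and 6 below. They also had the largest gap between mutant libraries. Their median deviation from the control mean was 0.11, -0.38 and 0.12 on the log2 scale in mutant replicates 1 to 3, against 0.062, -0.053 and -0.017 in control replicates 1 to 3. Mutant replicate 2 was the lowest library for 8 of the 10. Ccno, the cyclin O gene needed to amplify centrioles, had 15.4, 10.3 and 13.2 FPKM in mutant libraries and 15.4, 11.9 and 15.4 FPKM in control libraries. Cdc20b, of the same step, had 8.31, 6.001 and 7.22 FPKM in mutant libraries and 9.17, 7.75 and 9.72 FPKM in control libraries. Its log2 change was -0.28 ± 0.12 (adjusted p = 0.451), and the groups overlapped. Tubb4b, a tubulin of ciliary microtubules, was the most abundant listed gene, at 636 ± 37.5 FPKM in mutant and 615 ± 28.3 FPKM in control (SD, n = 3 each).

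Among other dynein genes, Dnah7b, an inner arm heavy chain with the close copy Dnah7a, and Wdr78 had log2 changes of 0.18 and 0.11, and Dnal4, the most abundant of that list, had 0.040. Among assembly factors, Dyx1c1, Spag1 and Dnaaf3 had changes of 0.14, 0.21 and 0.086. Dyx1c1 had 9.86, 9.17 and 9.53 FPKM in mutant libraries and 8.43, 8.67 and 8.52 FPKM in control libraries, without overlap (limma adjusted p = 0.415). Of the spoke and central apparatus list, Spag8 and Rsph14 had changes of 0.21 and 0.11, and Nme5, a spoke gene, had 0.00022. Cfap61, a spoke gene of the doublet list, was lower in mutant by value, with a change of -0.21 ± 0.091 (adjusted p = 0.439). In the same list Ccdc108 had 0.13 and Lrrc23, the most abundant, had -0.0012. The largest change above 0 of the 80 was that of Ccdc146, at 18.7 ± 2.70 FPKM in mutant and 15.3 ± 0.134 FPKM in control (SD, n = 3 each). Its log2 change was 0.26 ± 0.099, with a limma adjusted p of 0.388. Fam216b and Ccdc153, also of ciliated cells, had 0.20 and 0.071.

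**Figure D4:**
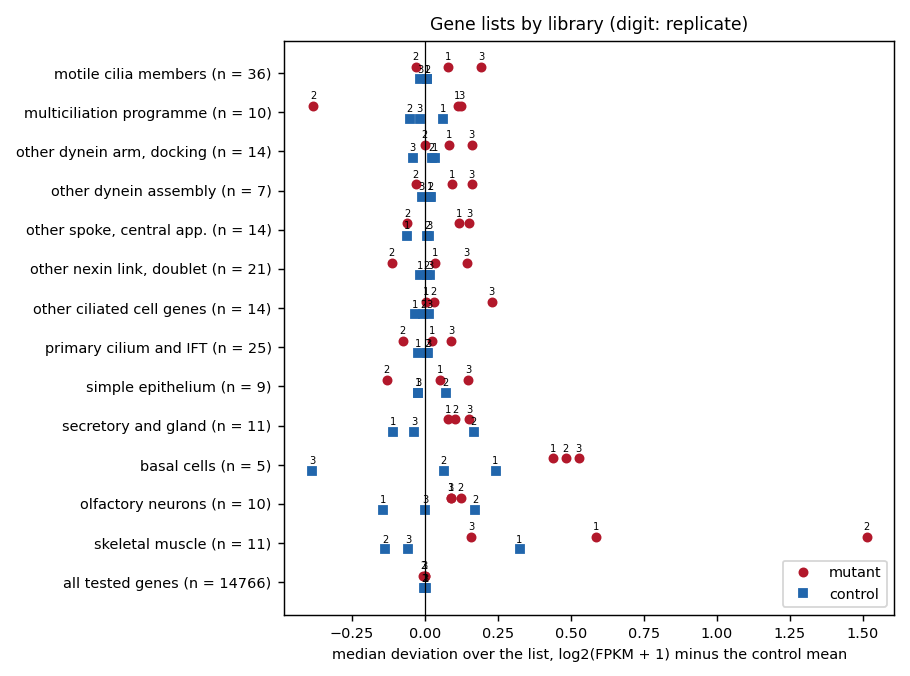
Median deviation over each gene list from its control mean, in log2(FPKM + 1), for mutant (red circles) and control libraries (blue squares), with the replicate number above each point. The motile cilia members are drawn together, not by role. Counted with the members split by role, which is not drawn, mutant replicate 3 is highest in 13 of 14 motile cilia lists and mutant replicate 2 lowest in 7. Both also hold for simple epithelium. The multiciliation programme has the widest gap of the cilia lists. Mutant replicate 2 is highest in the muscle list. In the basal cell list mutant replicate 3 is highest, but mutant replicate 2 is not lowest.

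Listed markers of nasal cell types ranged from absent to abundant. The whole nasomaxillary complex was sequenced, and the part of nasal and other epithelium in the basal cell genes was not tested. Bpifa1 and Reg3g, secreted by airway epithelium and chosen after their values were seen, averaged 1159 and 431 FPKM, whereas Scgb1a1 averaged 0.414 FPKM and Tff3 was listed at 0. Secretory and gland genes had a median change of 0.15, with 0 of 11 tested genes called; Bpifb1 had 0.29 ± 0.13 and Muc5b 0.21 ± 0.11. Omp, the marker of mature olfactory neurons, whose cilia do not beat, had 85.7, 93.1 and 91.3 FPKM in mutant libraries and 73.8, 89.7 and 76.3 FPKM in control libraries. The 10 olfactory neuron genes had a median change of 0.14 with none called, and Rtp2 had 0.14. Basal cell genes had a median change of 0.48 with none called. Of the 5, 4 had an unadjusted limma p under 0.05 (11.3% of tested genes did). Groups did not overlap for 4 of the 5, all higher in mutant (7.85% of tested genes), and 1 change was below 0. Krt5 had 288, 293 and 273 FPKM in mutant libraries and 228, 169 and 120 FPKM in control libraries (adjusted p = 0.265), and Krt15 had a change of 0.48 ± 0.091 (adjusted p = 0.136). In the 6-gene list of ependyma and choroid plexus, which also carry motile cilia, levels were mixed. Ttr and Folr1 averaged 0.216 and 0.726 FPKM, whereas Kcnj13, Aqp4, Otx2 and Clic6 averaged 3.01, 22.6, 28.7 and 50.7 FPKM, and the part of such cells in the cilia gene levels was not tested. The 6 male germ cell genes averaged at most 0.405 FPKM each.

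Levels per length were lower for genes with long transcripts. Across the 36 genes, Spearman's rho between mean FPKM and the longest annotated transcript (GENCODE M21, GRCm38) was -0.82; all points come from the same 6 libraries, and FPKM itself divides by length. The 9 genes with transcripts of at least 7000 bases, which are the 5 heavy chains, Hydin, Spag17, Spef2 and Rfx3, had 4.39 to 12.2 FPKM. The other 27 had 11.8 to 257 FPKM, with a median of 29.0 FPKM. The genes lie on 16 chromosomes. Lrrc6 (chromosome 15, 66379858 to 66500910, minus strand) and Rsph4a (chromosome 10, 33905111 to 33916021, plus strand) are the genes with the lowest and the highest change. Foxj1 lies on chromosome 11, 116330704 to 116335399, minus strand.

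**Figure D5:**
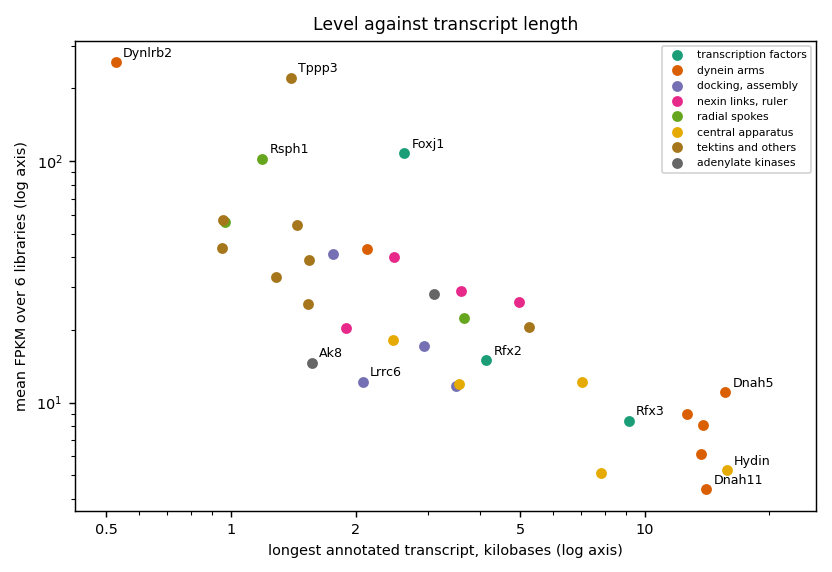
Mean FPKM over 6 libraries (log axis) against the longest annotated transcript (kilobases, log axis) for the 36 genes, coloured by role. The 9 genes with transcripts of at least 7000 bases sit at 12.2 FPKM or lower.

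The deposited values carry no depth, and the spacing of low FPKM values gave relative depths of 0.671 (mutant replicate 3) to 1.11 (control replicate 2) times control replicate 1. By the resulting estimate no gene of the 36 had fewer than 199 fragments in any library, which gives a counting error of about 7.09% for that value. Over the 6 libraries, the coefficient of variation ran from 3.91% for Spag17 to 16.4% for Dynlrb2, with a median of 7.57%.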

How the data were processed

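Messenger RNA of 6 libraries (3 mutant, 3 control, grouped by the genotype label) was analysed. Per the labels' protocols, TRIzol gave the RNA and a stranded kit the libraries. The submitters' processing notes name Cuffdiff 2.2.1, TopHat2 2.1.1, SAMtools 0.1.18, Bowtie2 2.2.8 and build mm10. How strand was handled, the annotation and any filter: not given in the sources used here. As unit, the authors deposited FPKM values, 1 per gene symbol and library, per the file headers. A count test does not suit this unit.

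From these, log2(FPKM + 1) was compared between mutant and control with limma 3.58.1 in R 4.3.3 (lmFit, eBayes with trend, two-sided, no covariate) for the 14766 genes averaging 1 FPKM or more, with Benjamini-Hochberg adjustment over all of them. The members and lists were chosen with earlier results of these data known. Genes with values for each library are the transcription factors and, per role group, called genes, the 2 of smallest p and the most abundant; other lists give called genes or the 2 of smallest p, plus the most abundant cilia gene. Genes outside this rule are marked where they appear. Simulated data (5 draws, 200 changed genes) gave recovery of 89.6% at 2-fold and 98.9% at 4-fold for this comparison over 14766 genes. Replicates are numbered in accession order. Relative depth came from the commonest ratio between low values (under 0.15 FPKM) of libraries, within 0.01 on the log2 scale, and its scale from 27 genes with 1 annotated transcript. Positions are from GENCODE M21 (GRCm38, the coordinates of mm10). Alternatives were other pseudocounts, filters, scalings, eBayes settings, library weights, sex as a covariate and leaving out each library. Plots were drawn with matplotlib 3.10.9 in Python 3.11.15.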

Additional observations from a re-analysis of the deposited data

How the results depend on the processing

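No paired analysis was possible because the labels carry no replicate numbers. Over 16 alternatives none of the 36 genes, and none of the other cilia genes tested, was called; the smallest limma adjusted p of the 36 was 0.265, with library weights. Their median log2 change stayed above 0, from 0.029 when mutant replicate 3 was left out to 0.13 when mutant replicate 2 was. The count of called genes over all tested genes, 39, became 18 with no filter, 19 without trend and 71 with library weights, and 17 to 44 when leaving out each library. The sex covariate leaves mutant replicate 1 alone against the controls, so no such count is given for it. Of 638 values of the 40 named cilia genes under alternatives, 36 changed sign and 0 were called. Lrrc23 had 0.0023 with median ratio scaling, 0.013 with quantile scaling, 0.025 with library weights and 0.073 with the sex covariate. Library weights gave -0.028 for Drc1 and -0.016 for Nme5. The sex covariate gave -0.053 for Dynlrb2, -0.13 for Drc1, -0.0051 for Ak8, 0.11 for Ccno, -0.0037 for Tubb4b, -0.044 for Nme5 and -0.026 for Ccdc153. Leaving out each library gave -0.0055 to 0.15 for Ak7, -0.0079 to 0.10 for Ak8, -0.040 to 0.13 for Ccdc153, -0.26 to 0.0086 for Ccno, -0.076 to 0.11 for Drc1, -0.060 to 0.21 for Dynlrb2, -0.060 to 0.12 for Foxj1, -0.0065 to 0.23 for Kcnj13, -0.065 to 0.10 for Lrrc23, -0.074 to 0.053 for Nme5, -0.021 to 0.069 for Rfx3, -0.0017 to 0.084 for Tubb4b and -0.029 to 0.18 for Zmynd10. Rsph4a had the largest change of the 36 under 10 of the 16 alternatives, and another gene under 6 (Zmynd10 with the sex covariate, the others with 1 library left out). Of the 8 cartilage genes, 3 were called with no filter, 3 without trend, 4 with robust eBayes and 2 to 8 when leaving out each library. Krt15 was called without control replicate 1, with a change of 0.58 (adjusted p = 0.0257). The cause of these shifts was not tested. With 3 libraries a group, recovery of changes below 2-fold was not simulated. In the main fit the intervals of the 36 genes reached 0.824-fold and 1.37-fold, so smaller changes are not excluded.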

Other observations

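Genes of intraflagellar transport and the primary cilium, the single non-beating cilium that most cells carry, were also at similar levels in both genotypes. All 25 listed were tested and none was called, with a median log2 change of 0.0091 and intervals within 1.5-fold for all 25. Kif3b, a motor subunit of intraflagellar transport, had -0.079 ± 0.056, and Bbs1, of the BBSome coat, had -0.10 ± 0.063 (limma adjusted p = 0.585). Mutant replicate 2 was the lowest library for 17 of the 25 and mutant replicate 3 the highest for 14, the same libraries as for motile cilia genes.

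In the olfactory sustentacular list, Cyp2g1 and Ermn had log2 changes of 0.20 and -0.22, and 0 of 4 tested genes were called. Otx2 and Kcnj13, of the choroid plexus list but not confined to it, had -0.19 and 0.11. Cldn7, a tight junction gene of the simple epithelium list, had 40.0, 35.3 and 44.1 FPKM in mutant libraries, all below the 45.6, 48.6 and 44.6 FPKM of control libraries (limma adjusted p = 0.397), while Grhl2 had a change of 0.13. In the muscle list Tnni1 and Myod1 had 0.96 and 1.06 (adjusted p of 0.247 and 0.265).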
